A study of Mus musculus with 10 samples.

Results

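The wide PRDM16 peaks are the stretches of 1000 bp or more in the list of PRDM16 ChIP-Seq peaks from mouse fibroblasts. They were selected on length alone, and 829 of the 11271 peaks (7.36%) met the rule. Together they held 19.99% of all bases under PRDM16 peaks, 1133549 of 5671324 bp. The ChIP-Seq cells were wild-type primary fibroblasts, labelled as vascular, that received a lentivirus with Flag-tagged PRDM16 or with no insert (vector). Infection lasted 48 hours, and cells were then kept for 1 week in puromycin at 2 μg/mL. Chromatin was precipitated with an anti-Flag antibody in 1 library per condition, so no peak value has a replicate, and the binding is that of introduced PRDM16 in fibroblasts, not of the protein made by smooth muscle. RNA-Seq came from thoracic aortas of 3 Control mice (*Prdm16*f/f) and 3 Prdm16SMKO mice (*Prdm16*f/f, SMMHC-CreERT2), in which a tamoxifen-activated Cre driven by the smooth muscle myosin heavy chain promoter deletes *Prdm16* in smooth muscle cells. The Cre transgene lies on the Y chromosome, so the mice that carry it are male. Tamoxifen was given at 75 mg/kg/day over 5 days to mice aged 8 weeks, and 2 weeks of washout came after it. Whether the Control mice also received it is not given in the sources used here. No RNA was measured in the fibroblasts, so their cell type was not checked against markers.

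PRDM16 is a zinc-finger transcriptional regulator of the PRDM family. It is best known as a switch for brown fat identity, where it works with partners such as C/EBPβ, PPARγ, and EBF2 and with corepressors such as the CtBP proteins. MACS2, the peak caller used by the authors, joins neighbouring enriched bases into 1 peak, so a wide peak is either a broad domain of signal or several sites that lie close together, and peak lists alone do not separate these. CpG islands, stretches rich in C and G in which the dinucleotide CpG is not depleted, lie at the promoters of most housekeeping and developmental genes.

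The sequences at the summits, the positions of highest signal, show how most wide peaks differ in base composition from those away from promoters. Each run below is 200 bases of the GRCm38 reference written 5′ to 3′ on the strand of the named gene, as close to the summit as regions outside untranslated exons allowed, with CpG dinucleotides in capitals. The first 2 come from the longest and the fourth-longest peak, and the third from the most enriched wide peak. The next 4 come from peaks at genes described with the aortas, and the last from an intron.
*Tns2*, chr15:102100078-102100277, plus strand: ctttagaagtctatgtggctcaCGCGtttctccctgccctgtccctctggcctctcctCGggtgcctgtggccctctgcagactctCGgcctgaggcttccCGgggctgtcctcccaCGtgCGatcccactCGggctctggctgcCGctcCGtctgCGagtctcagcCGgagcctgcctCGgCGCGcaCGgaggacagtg
*Hoxa2*, chr6:52165046-52165245, minus strand: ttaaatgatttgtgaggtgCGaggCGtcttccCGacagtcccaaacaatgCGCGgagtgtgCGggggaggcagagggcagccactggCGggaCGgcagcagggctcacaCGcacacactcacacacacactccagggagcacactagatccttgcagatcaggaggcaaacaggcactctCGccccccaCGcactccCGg
*Kctd12*, chr14:102982804-102983003, minus strand: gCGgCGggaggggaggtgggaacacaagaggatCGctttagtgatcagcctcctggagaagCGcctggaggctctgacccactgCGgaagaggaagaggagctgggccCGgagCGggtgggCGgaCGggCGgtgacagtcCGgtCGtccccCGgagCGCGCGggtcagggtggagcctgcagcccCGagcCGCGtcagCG
*Arntl*, chr7:113207844-113208043, plus strand: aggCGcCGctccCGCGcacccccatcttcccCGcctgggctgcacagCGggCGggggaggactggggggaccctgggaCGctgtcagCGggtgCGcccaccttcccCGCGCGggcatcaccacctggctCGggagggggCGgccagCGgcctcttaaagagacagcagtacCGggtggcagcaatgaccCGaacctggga
*Bhlhe40*, chr6:108660913-108661112, plus strand: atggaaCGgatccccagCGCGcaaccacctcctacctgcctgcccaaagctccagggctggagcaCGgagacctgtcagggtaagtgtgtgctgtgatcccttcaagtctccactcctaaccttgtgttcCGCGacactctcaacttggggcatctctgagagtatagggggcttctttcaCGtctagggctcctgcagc
*Adra1d*, chr2:131562498-131562697, minus strand: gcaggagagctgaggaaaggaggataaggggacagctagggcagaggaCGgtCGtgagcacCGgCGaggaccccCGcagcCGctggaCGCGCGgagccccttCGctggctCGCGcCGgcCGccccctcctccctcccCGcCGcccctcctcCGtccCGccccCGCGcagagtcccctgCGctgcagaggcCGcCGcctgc
*Irs2*, chr8:11007781-11007980, minus strand: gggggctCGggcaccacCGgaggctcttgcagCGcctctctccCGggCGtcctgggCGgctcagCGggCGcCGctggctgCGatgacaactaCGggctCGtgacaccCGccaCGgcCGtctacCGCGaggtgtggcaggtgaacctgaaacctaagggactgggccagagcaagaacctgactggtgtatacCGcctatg
*Axl*, chr7:25781957-25782156, minus strand: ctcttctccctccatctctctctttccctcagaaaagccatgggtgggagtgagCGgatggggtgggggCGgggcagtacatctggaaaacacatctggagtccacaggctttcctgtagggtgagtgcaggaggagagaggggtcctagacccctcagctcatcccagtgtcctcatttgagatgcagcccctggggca
The window at *Adra1d* held 23 CpG and that at *Kctd12* 20, whereas the intronic window of *Axl* held 2 at a G+C content of 58.5%. The promoter window of *Bhlhe40* lay between these, with 7 CpG at nearly the same G+C content as *Axl*. All 200 bases of the *Irs2* window and 80 of the *Bhlhe40* window are protein coding, and none is in the other windows shown.

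Wide peaks ran from 1000 to 4976 bp, with a median of 1231 bp and quartiles of 1082 and 1487 bp. At the threshold itself were 5 peaks of exactly 1000 bp, nearest to the TSS of *Plxdc2*, *Natd1*, *Ky*, *Ak5*, and *Msl2*, and just under it were 1 of 999 bp near *Tbc1d12* and 2 of 998 bp near *Dlgap4* and *Gm17769*. Their fold enrichments, the authors' ratio of signal over local background at the summit, were 4.22 to 7.81 at 1000 bp and 6.33 to 8.44 at 998 to 999 bp. The longest peak covered the TSS of *Tns2*, which encodes the focal adhesion protein tensin 2, from −2948 to 2027 bp relative to it. *Hic1*, a transcriptional repressor, had a peak of 4440 bp and *Hoxa2*, a homeobox gene of hindbrain and pharyngeal arch patterning, one of 3376 bp. The third- and fifth-longest lay in exons, 3605 bp in *Tchh* (trichohyalin) and 3312 bp in *Mn1*, a transcriptional coregulator. *Fzd7*, a Frizzled receptor for WNT ligands, followed with 3227 bp, then *Ptprs*, a receptor tyrosine phosphatase, with 3072 bp, and *Irf2bpl*, *Mex3b*, and *Pcdh7* with 2848 to 2885 bp. Of these 10, *Hoxa2* had the lowest G+C content (53.6%).

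**Figure D1:**
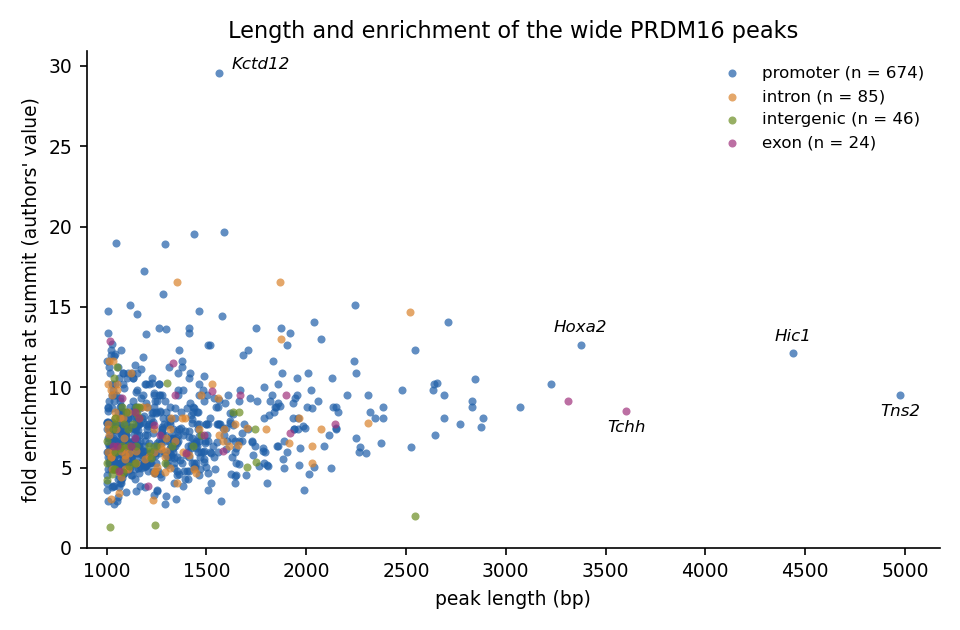
Peak length in bp (x) against the fold enrichment at the summit (y) for the 829 wide peaks, 1 point per peak, coloured by position. *Kctd12* stands alone at 29.5, while the longest peak, at *Tns2*, has a fold enrichment of 9.49.

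Enrichment and length ranked the peaks differently. The median fold enrichment of wide peaks was 6.82, with a range of 1.32 to 29.5. That of the 10442 narrower peaks was 4.96, with a range of 1.11 to 47.1, so the most enriched peak of the list was not wide. Across the 829 wide peaks, length and fold enrichment had a Pearson's r of 0.208 and a Spearman's rho of 0.177, a description over peaks of 1 library, and both values enter the peak call. The highest value among wide peaks, 29.5, was at *Kctd12*, which encodes an auxiliary subunit of GABA-B receptors, in a peak of 1562 bp at chr14:102981620-102983181. *Pde10a*, a cyclic nucleotide phosphodiesterase, reached 19.7 and *Foxf2*, a forkhead factor of mesenchyme, 19.5. *Wrnip1* and *Clcn4* followed with 19.0 and 18.9, and *Cacnb3*, a calcium channel subunit, with 17.2. An intronic peak of *Axl*, a receptor tyrosine kinase, and one whose nearest TSS was that of *Dst* both had 16.5, *Ptger4*, a prostaglandin E2 receptor, had 15.8, and *Map3k1* and *Dok5* had 15.1 each. Only *Kctd12* in this group was above 20, and none was among the 10 longest.

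The wide peaks were mostly promoter peaks. Placed by their centre, 674 of 829 (81.3%, 95% Clopper-Pearson interval 78.5 to 83.9) had the start (TSS) of a curated RefSeq transcript at most 2 kb away, 85 (10.3%) in introns, 46 (5.55%) between genes, and 24 (2.90%) in exons farther from a TSS. Narrower peaks were in promoters in 59.0% (58.0 to 59.9), in introns in 17.9%, and between genes in 20.04%. The intervals cover counting error only, peaks are not replicates, and no test between the lists was made. The promoter share grew with length, from 51.8% at 200 to 399 bp and 73.0% at 800 to 999 bp to 79.3% at 1000 to 1249 bp and 85.5% at 2000 bp or more. A promoter cut at 1 kb before and 100 bp after the TSS held 26.4% of wide peaks and 19.6% of narrower ones, since most centres lay farther into the gene.

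Within promoters, wide peaks were displaced into the transcribed side and also reached upstream. Of the 674 wide promoter peaks, 523 (77.6%, interval 74.3 to 80.7) had their centre downstream of the nearest TSS, as did 80.2% of the 6160 narrower ones. The median centre was 321 bp downstream, against 248 bp in narrower peaks. The upstream edge of a wide promoter peak had its median at −307.5 bp from the TSS and the downstream edge at 1008 bp. Narrower peaks typically began 47 bp after the TSS and ended at 456 bp. The TSS itself was covered by 456 of the 674 (67.7%) and by 26.6% of narrower promoter peaks, and a longer peak covers more positions by construction. The position most often covered was 250 bp downstream in wide peaks, where 87.2% of them overlapped, and 200 bp in narrower peaks, where 60.9% did. In 47 wide peaks (5.67%) the TSS of 2 or more genes were covered, against 0.594% of narrower peaks.

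**Figure D2:**
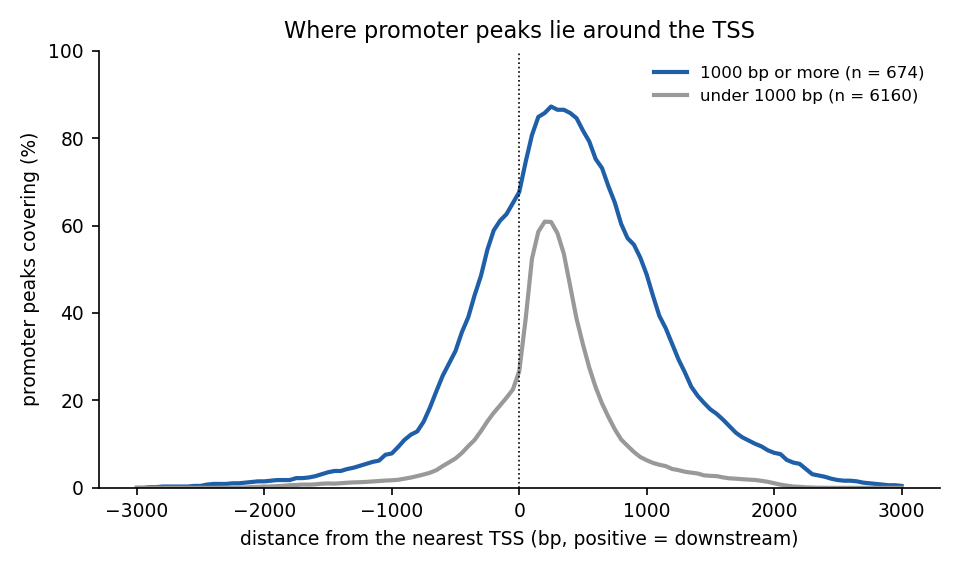
Percent of promoter peaks covering each position (y) by distance from the nearest TSS in bp (x), for wide (blue, 674) and narrower (grey, 6160) peaks in steps of 50 bp. Both curves peak downstream of the TSS, at 250 and 200 bp, and the wide curve is the broader on both sides.

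The 20 longest promoter peaks, all of 2523 bp or more, took several forms. In 14 the TSS was covered and 6 began just after it, and 17 reached more than 1 kb into the gene. The peak at *Fzd7* began 32 bp downstream of the TSS and ended at 3258 bp, and lay wholly in exon sequence, of which 1719 bp were coding. That at *Mex3b*, an RNA-binding protein, began at 23 bp, while those at *Tns2*, *Cux1*, and *Tshz3* extended more than 2 kb upstream. Over all wide peaks, 18.1% of bases were coding, 18.5% were other exon sequence, 43.2% were intronic, and 20.1% were outside genes. In narrower peaks the shares were 13.2%, 15.9%, 43.5%, and 27.5%. Wholly exonic peaks made up 6.27% of wide and 8.56% of narrower peaks and included those at *Irs2*, *Jun*, and *Cebpa*.

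**Figure D3:**
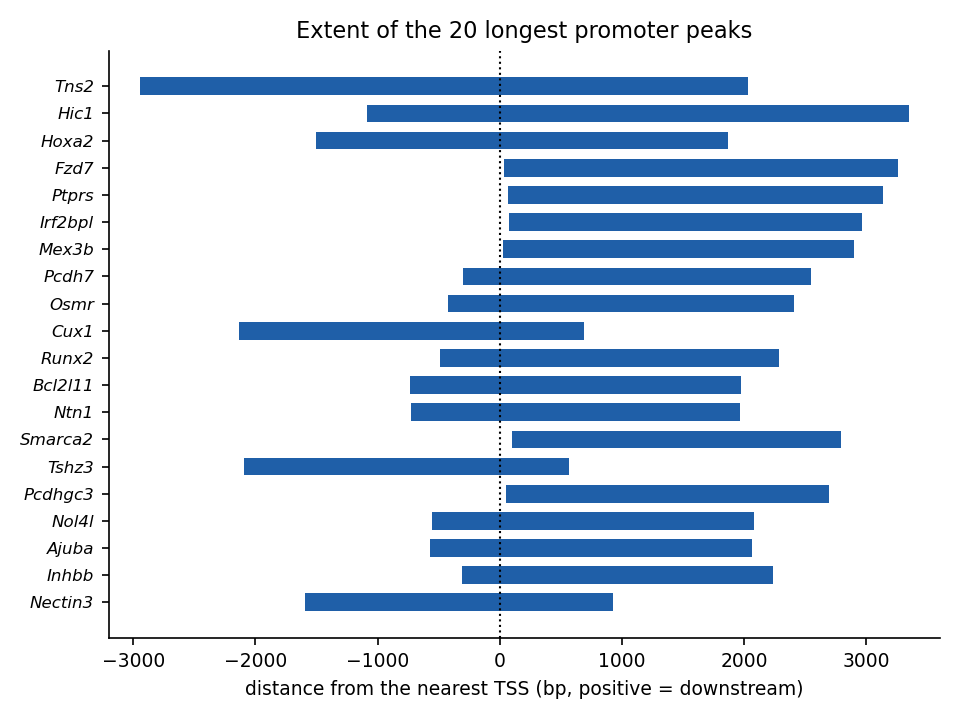
Extent in bp from the nearest TSS (x, dotted line at 0, positive downstream) of the 20 longest promoter peaks, 1 bar per peak, labelled by the gene with the nearest TSS (y). Of these bars, 14 cross the line, 6 begin to its right, and *Tns2*, the longest, spans from −2948 to 2027 bp.

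Base composition differed more between positions than between widths. The median G+C content was 65.9% in wide peaks and 62.6% in narrower ones, and the median ratio of observed to expected CpG was 0.764 against 0.628. Among promoter peaks alone the order was the opposite, with a G+C content of 66.9% in wide and 68.4% in narrower peaks and CpG ratios of 0.789 and 0.797. Wide intronic peaks had a median CpG ratio of 0.309 and wide intergenic peaks 0.294, against 0.233 and 0.239 in narrower ones. A G+C content of at least 50% with a CpG ratio of at least 0.6, the usual composition of a CpG island, was met by 583 of 674 wide promoter peaks (86.5%), 17 of 85 intronic, and 15 of 46 intergenic peaks (32.6%). Narrower peaks met it in 78.8% of promoters, 7.21% of introns, and 13.6% of intergenic sites.

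**Figure D4:**
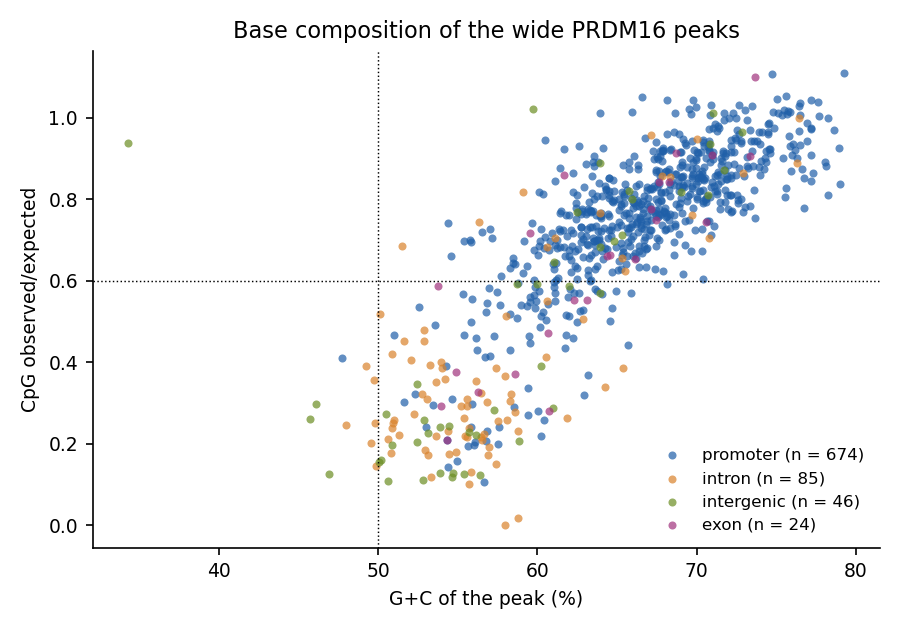
G+C content in percent (x) against the ratio of observed to expected CpG (y) for the 829 wide peaks, 1 point per peak, coloured by position, with dotted lines at 50% and 0.6. Promoter peaks (blue) sit mainly in the upper right, and most intronic (orange) and intergenic (green) peaks lie under 0.6.

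Short sequence motifs were counted on both strands in the 300 bp around each summit, beside narrower peaks and the 32817 RefSeq promoters of 300 bp (250 before to 50 after the TSS, GRCm38). GGGCGG, the box bound by SP and KLF factors, was in 56.5% of wide peaks, 43.0% of narrower peaks, and 35.6% of promoters. In wide peaks it was in 61.9% at promoters and 32.9% elsewhere. The G+C content of these windows, a median of 68.7% in wide peaks, 62.7% in narrower peaks, and 52.7% in promoters, moved with this order, and its part was not tested. Other strings were less frequent in wide peaks than in promoters, but the windows differ in place as well as in G+C content. Summits of wide promoter peaks had a median of 270 bp downstream of the TSS, and the promoter windows end at 50 bp. The part of place and of G+C content in these shares was not tested. The CCAAT box was in 11.2% of wide peaks and 37.4% of promoters, and TATAAA in 0.965% and 13.6%. CGCATGCG, the core of the NRF1 site, was in 0 of 829 wide peaks, which allows a share of up to 0.362% (3 counts of 829; the exact interval reaches 0.444%), and in 0.384% of narrower peaks and 1.86% of promoters. The AP-1 site TGACTCA was in 2.97% of wide promoter peaks and 9.68% of the other wide peaks, and the GATA core AGATAA in 3.41% and 10.97%. Over all wide peaks, narrower peaks, and promoters, TGACTCA was in 4.22%, 5.78%, and 5.20% and AGATAA in 4.83%, 6.61%, and 11.2%. CACGTG, an E-box that clock and MYC-family proteins bind, was in 4.95% of wide peaks, 5.12% of narrower peaks, and 7.15% of promoters. The ETS core CCGGAAG (5.43%, 5.71%, and 8.86% in the same order), AAGATGGC of YY1 (0.483%, 2.35%, and 2.74%), and TGACGTCA (0.121%, 0.537%, and 1.79%) were likewise less frequent in wide peaks than in promoters. No one of these letter strings contains another, and a match is a run of letters and not a measured site.

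Some wide peaks had other peaks nearby. Another PRDM16 peak of any width within 5 kb was present for 311 of 829 (37.5%), against 30.2% of narrower peaks. With gaps under 10 kb, 30 pairs and 2 runs of 3 wide peaks were found. At *Irs1*, an insulin receptor substrate, peaks of 1084, 1266, and 1464 bp lay within 8040 bp, 1 each in an intron, an exon, and the promoter, and the promoter peak had a fold enrichment of 14.8. At *Kctd10*, 3 intronic peaks of 1049 to 1799 bp lay within 7656 bp. Pairs included *Wnt9a*, *Col1a1*, *Foxc1*, *Gata2*, *Smad7*, *Ebf3*, and *Axl*. The share of peaks that were wide ranged from 5.17% on chromosome 1 to 8.93% on chromosome 8 among autosomes, and 3 of 76 peaks on chromosome X were wide.

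A few members stood apart as measurements. The vector library had 67 peaks, and 1 wide PRDM16 peak overlapped one, at chr14:19416917-19417931, which had a fold enrichment of 1.32, the lowest of all wide peaks, and consisted of repeats over 84.4% of its length. A fold enrichment under 3 was found in 9 wide peaks (1.09%), among them a pair at chr17:39843069-39844309 and chr17:39846175-39848721 with 1.45 and 1.98. The 2 intronic peaks at chr9:46133419-46134946 and chr9:46135529-46136940 had CpG ratios of 0 and 0.018 and were 98.6% and 100% repeat-masked. Without the 9 peaks the promoter share was 81.6%. The stated q threshold was 0.01, but the list reaches a q of 0.0483, and 3 wide peaks (near *Sox4*, *Kdm7a*, and *Zfpm1*) were above 0.01. Per the labels, ChIP-Seq libraries had an average of 25000000 read pairs, but the lists give neither the reads per peak nor the depth of each library. The fold enrichments fell on whole multiples of 0.352 in 427 of 829 wide peaks (tolerance 0.001 of a step), so neighbouring ranks are often separated by 1 step or tied.

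The genes at wide promoter peaks were chosen by binding and then compared between the aortas to ask whether their RNA differed without smooth muscle PRDM16. A TSS within 2 kb of a wide peak centre was found for 760 genes, or 3.05% of the 24952 with a curated TSS, and 98 peaks had 2 or more such genes. Of these, 744 were matched to the RNA table, 14 were listed at 0 TPM in all 6 aortas, and 667 had a mean TPM (transcript abundance per length, scaled by the authors to the same sum in each aorta) of at least 0.5 and were tested. In Control aortas the median over the 744 genes was 13.0 TPM, with quartiles of 3.43 and 36.5, and 637 (85.6%) had at least 1 TPM. Genes with only a narrower promoter peak had a median of 11.5 TPM and 83.4% at 1 TPM or more, and genes without a promoter peak 0.14 TPM and 38.4%. The 5 highest were *Vim*, the intermediate filament vimentin (2805 TPM), the tropomyosins *Tpm2* (2731 TPM) and *Tpm1* (1758 TPM), *Csrp2*, a LIM protein of smooth muscle (1748 TPM), and *Ccn2*, a matricellular growth factor (1101 TPM). Fibroblasts and aortas are different samples, and a peak measured in one was not measured in the other.

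The targeted gene, *Prdm16*, was at 56.1, 47.6, and 40.3 TPM in the Control aortas and 23.3, 33.3, and 23.4 TPM in the Prdm16SMKO aortas, without overlap (log2 fold change −0.85 ± 0.18 SE, adjusted *P* = 0.0725, limma). The summed TPM of 4 smooth muscle markers (*Acta2*, *Myh11*, *Tagln*, *Cnn1*) was 19527 to 22509 in Control and 12883 to 16540 in Prdm16SMKO aortas, and that of 4 macrophage markers 24.7 to 31.1 and 31.3 to 66.5. Neither range overlapped, and the part of these shifts in the gene values below was not tested. Of the single markers, *Acta2*, *Tagln*, and *Cnn1* were lower in every Prdm16SMKO aorta, while *Myh11* overlapped. Of the macrophage markers only *Cd74*, an antigen presentation chaperone that other immune cells also make, was without overlap (15.8 to 19.1 and 24.8 to 55.3 TPM), and the sums of the other 3 markers overlapped at 6.43 to 12.9 and 6.49 to 11.9 TPM. In such bulk tissue, fewer cells of a type and less RNA per cell cannot be told apart. Sums of brown adipocyte, blood, endothelial, fibroblast, and skeletal muscle markers overlapped between the groups.

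By limma with Benjamini-Hochberg adjustment over 15668 genes, 6 of the 667 tested genes with a wide promoter peak (0.900%) passed an adjusted *P* of 0.05, while 168 of all tested genes (1.07%) did. Higher in Prdm16SMKO were 2, against a background of 0.389% of all genes, and lower were 4, against 0.683%. On the deposited scale the share of called genes was thus near that of all genes. At an unadjusted *P* of 0.05, 117 of the 667 (17.5%) passed, against 13.4% of genes with only a narrower promoter peak and 12.7% of all tested genes. The 2 groups of 3 aortas did not overlap for 156 of the 667 (23.4%), 45 higher and 111 lower in Prdm16SMKO. They did not overlap for 21.6% of genes with only a narrower promoter peak and 19.0% of all genes. The median log2 fold change was −0.10 over the 667 genes and −0.12 over all genes. Rescaling the TPM by the median ratio removed this shift and moved the call counts to 30 of 667, of which 20 were higher and 10 lower, beside 413 of all genes, of which 200 were higher and 213 lower. The shares were then 4.498% of wide-peak genes and 2.64% of all genes, and with quantile normalization 3.75% and 2.50%. The balance of directions, the count, and the standing of the wide-peak genes beside all genes therefore depended on the scale. Without Control replicate 1, the count was 1, and it was 3 without Control replicate 2, Control replicate 3, or Prdm16SMKO replicate 1.

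The 2 genes that rose were *Bhlhe40* and *Wasf1*. *Bhlhe40*, a basic helix-loop-helix repressor of the clock (DEC1), was at 13.7, 10.6, and 12.01 TPM in Control and 27.2, 26.2, and 24.7 TPM in Prdm16SMKO aortas. Every Prdm16SMKO aorta was above every Control aorta, at a log2 fold change of 1.11 ± 0.14 SE (adjusted *P* = 0.00892, limma), under a peak of 1020 bp centred 564 bp into the gene. The TSS nearest to this peak is that of the divergent transcript 0610040F04Rik, not that of *Bhlhe40*. The paper's list of differentially expressed genes with a PRDM16 promoter peak links *Bhlhe40* to a different peak, upstream of its TSS. *Wasf1*, an activator of actin branching, was at 0.65, 0.81, and 0.66 TPM in Control and 2.81, 3.24, and 1.88 TPM in Prdm16SMKO aortas (log2 fold change 1.74 ± 0.33 SE, adjusted *P* = 0.0497). Its call was kept in 2 of 14 alternatives, and the TSS of *Cdc40* lies in the same window.

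The 4 genes that fell were *Rab6b*, *Irs2*, *Smim3*, and *Fbn1*. *Rab6b*, a Golgi GTPase, was at 7.61, 7.77, and 7.89 TPM in Control and 1.51, 1.03, and 2.49 TPM in Prdm16SMKO aortas, the largest fall of the 4 (log2 fold change −2.23 ± 0.29 SE, adjusted *P* = 0.00957). *Irs2*, an insulin receptor substrate, was at 34.3, 30.3, and 27.8 TPM in Control and 13.9, 17.3, and 12.6 TPM in Prdm16SMKO aortas (−1.08 ± 0.16 SE, adjusted *P* = 0.0153). The highest Prdm16SMKO value of *Irs2* was far under the lowest Control value. Its peak, 1962 bp at chr8:11006939-11008900, lies in its coding exon. The transcript 9530052E02Rik starts within this peak, and its TSS is the nearest one. The paper's list links *Irs2* to a different peak, upstream of the *Irs2* TSS. *Fbn1*, which encodes the microfibril protein fibrillin 1, was at 107, 81.7, and 91.9 TPM in Control and 57.4, 60.9, and 50.9 TPM in Prdm16SMKO aortas (−0.72 ± 0.13 SE, adjusted *P* = 0.0476). *Smim3*, a small membrane protein, was at 7.48, 6.43, and 7.73 TPM in Control and 3.65, 3.98, and 3.54 TPM in Prdm16SMKO aortas (−0.93 ± 0.17 SE, adjusted *P* = 0.0424). *Rab6b* and *Irs2* stayed under 0.05 in 12 and 10 of 14 alternatives, *Fbn1* and *Smim3* in 4 each. The paper's list of differentially expressed genes with a PRDM16 promoter peak has *Irs2* and *Fbn1* as lower. It has *Bhlhe40* and *Wasf1* as higher, and *Rab6b* and *Smim3* are not on it.

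**Figure D5:**
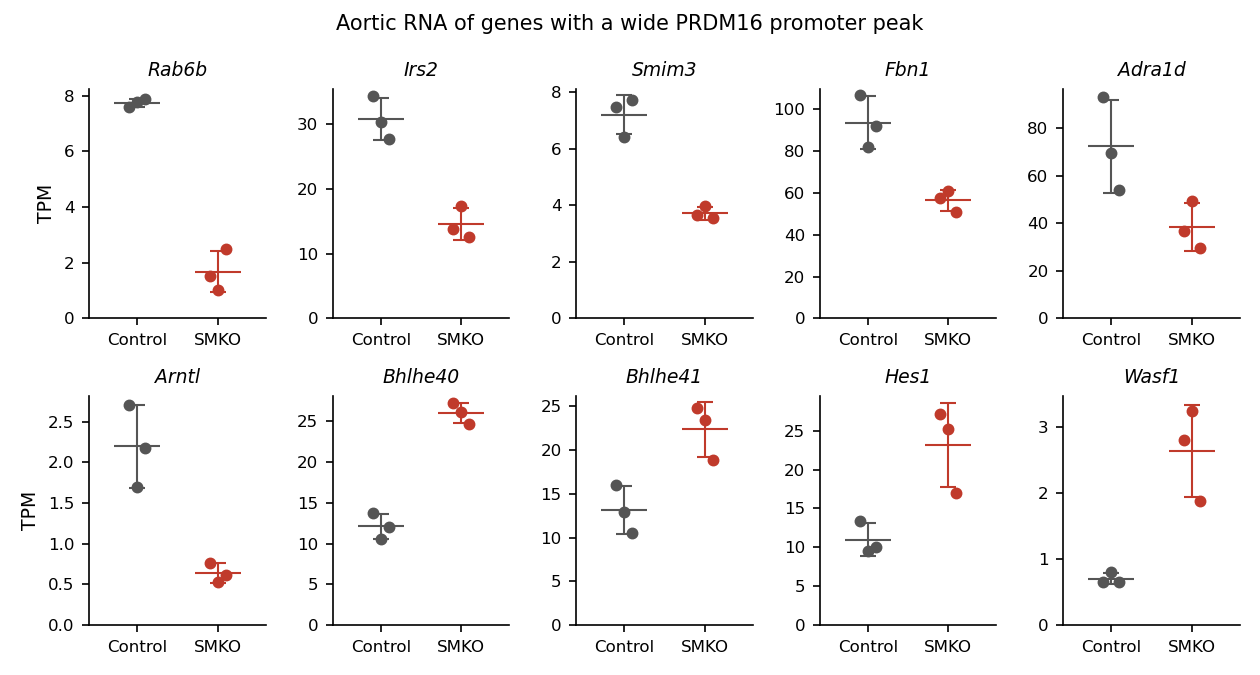
TPM (y) of 10 genes with a wide promoter peak in 3 Control (grey) and 3 Prdm16SMKO (SMKO, red) aortas, 1 point per aorta, with the mean (line) and SD (bars). The 10 were picked for display, so that the groups do not overlap in any of them is not a share of wide-peak genes. Over all tested genes, 19.0% did not overlap. *Rab6b*, *Irs2*, *Smim3*, *Fbn1*, *Bhlhe40*, and *Wasf1* passed the adjusted *P*.

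Disturbed circadian rhythm was one question of the study, and 3 of 23 on a list of core clock genes had a wide promoter peak. Besides *Bhlhe40* these were *Arntl* (*Bmal1*), the activator at the centre of the clock, and *Bhlhe41* (DEC2). *Arntl* had a peak of 1066 bp at chr7:113207579-113208644 with a fold enrichment of 8.79, starting 68 bp after the TSS. It was at 2.71, 1.70, and 2.18 TPM in Control and 0.77, 0.53, and 0.62 TPM in Prdm16SMKO aortas, which did not overlap, and its log2 fold change of −1.62 ± 0.34 SE did not pass (adjusted *P* = 0.0721). *Bhlhe41* had 2 wide peaks, of 1214 bp before and 1384 bp after the TSS. It was at 15.97, 13.0, and 10.5 TPM in Control and 24.8, 23.4, and 18.9 TPM in Prdm16SMKO aortas, again without overlap (0.77 ± 0.18 SE, adjusted *P* = 0.102). Over the whole list, 15 genes (65.2%) had a promoter peak of any width, as did 26.9% of all genes with a curated TSS. All genes include many too low to be tested in the aortas, whereas 22 of the 23 were tested. Of the 13232 tested genes with a curated TSS, 667 had a wide and 5076 only a narrower promoter peak. Of 22 tested clock genes 3 rose and 1 fell, beside the 0.389% and 0.683% of all genes. The hour at which the RNA-Seq aortas were taken is not given in the paper or the sample labels. Clock RNA varies over the day, so a change of level and a shift in time cannot be told apart in these RNA-Seq values. The paper also followed clock genes, *Bmal1* among them, by qPCR in aortas taken through the day and night. It reported *Npas2* lower in Prdm16SMKO aortas at all times measured. It found PRDM16 at the *Bmal1* promoter, but named *Npas2* and *Cry2* as the target clock genes.

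Among 9 adrenergic receptors, 4 had a promoter peak and 1, *Adra1d*, a wide one. *Adra1d* encodes the α1D receptor, which contracts the aorta on binding noradrenaline. Its peak spanned 1603 bp at chr2:131561118-131562720, from −223 to 1379 bp of the TSS, with 1051 coding bases and a fold enrichment of 6.68. *Adra1d* RNA was at 93.2, 69.6, and 54.1 TPM in Control and 36.7, 49.2, and 29.5 TPM in Prdm16SMKO aortas. The groups did not overlap, and the log2 fold change of −0.90 ± 0.23 SE did not pass (adjusted *P* = 0.131). The paper's own RNA-Seq analysis lists *Adra1d* as differentially expressed and lower, so not passing here refers to limma on TPM only. None of 7 tested adrenergic receptors was called, and no further member had a wide peak.

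Genes of known PRDM16 partners carried wide peaks. Of 37 genes on a list of PRDM16 cofactors and PRDM family members, 7 (18.9%) had a wide promoter peak, against 3.05% of all genes. All genes include many too low to be tested in the aortas. Of the 13232 tested genes with a curated TSS, 667 had a wide promoter peak, as did 7 of the 32 tested on the list. The 7 genes were the corepressors *Ctbp2* and *Tle3*, the brown fat factors *Cebpa*, *Cebpb*, *Pparg*, and *Ebf2*, and *Smad3*. The list and the data were known beforehand, and this share is a description. The longest of these peaks, 2272 bp, was at *Tle3*, and *Cebpa* had the lowest fold enrichment (4.40). None of the 32 tested members was called. *Smad3*, the TGF-β signal transducer, was at 13.9, 11.5, and 10.3 TPM in Control and 8.21, 7.61, and 6.52 TPM in Prdm16SMKO aortas, without overlap (−0.66 ± 0.17 SE, adjusted *P* = 0.130). *Cebpa* and *Pparg* overlapped between the groups, and both were highest in Control replicate 2 or Prdm16SMKO replicate 3, the 2 aortas with the most brown adipocyte marker RNA (1621 and 1154 TPM summed over 5 markers, against 405 to 765 TPM in the others). The part of these cells in the values was not tested.

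In signalling pathways, wide peaks were found at ligands, receptors, transducers, and antagonists. In the TGF-β and BMP list, 11 of 49 genes (22.4%) had a wide promoter peak, against 3.05% of all genes. Of the 46 tested in the aortas 9 had one, beside 667 of the 13232 tested genes with a curated TSS. The 11 comprised the ligand *Inhbb*, the proteases and matrix proteins *Bmp1* and *Ltbp2*, the transducers *Smad1*, *Smad3*, and *Smad9*, the inhibitory *Smad6* and *Smad7*, the antagonists *Nog* and *Grem1*, and the target *Id4*. The longest was at *Inhbb*, the activin B subunit, with 2543 bp and a fold enrichment of 12.3, and *Smad1* reached 13.3 in 1196 bp. In the aortas 1 of 46 tested genes rose, beside 0.389% of all genes, and it was not one of these. *Smad6* was at 45.3, 34.5, and 27.4 TPM in Control and 25.8, 21.3, and 24.4 TPM in Prdm16SMKO aortas (−0.56 ± 0.19 SE, adjusted *P* = 0.249). *Smad7* lay the other way, at 28.0, 26.2, and 25.5 TPM and 34.1, 46.6, and 31.4 TPM (0.47 ± 0.16 SE, adjusted *P* = 0.260). Neither pair of groups overlapped, although neither value passed.

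In the WNT list, 9 of 57 genes (15.8%) had a wide promoter peak, against 3.05% of all genes. Of the 39 tested in the aortas 8 had one, beside 667 of the 13232 tested genes with a curated TSS. Among the 9, 5 were Frizzled receptors, *Fzd1*, *Fzd2*, *Fzd4*, *Fzd5*, and *Fzd7*. Most Frizzled genes have a single coding exon, and their peaks of 1015 to 3227 bp were centred 624 to 1645 bp after the TSS. The remainder were the ligands *Wnt5a* and *Wnt9a*, the destruction complex scaffold *Axin2*, and the transcription factor *Lef1*, which was at 0.22 TPM or less in every aorta. *Fzd7* was at 61.2, 50.1, and 47.3 TPM in Control and 40.1, 43.1, and 32.3 TPM in Prdm16SMKO aortas, without overlap (−0.46 ± 0.15 SE, adjusted *P* = 0.250). Over the list 3 of 39 tested genes fell, beside 0.683% of all genes, and none of them had a wide peak.

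In the Notch list 2 of 26 genes had a wide promoter peak, *Hes1*, the main transcriptional target of Notch, and *Lfng*, a glycosyltransferase that tunes Notch receptors. The peak of *Hes1* lay wholly upstream, from −2457 to −1030 bp of the TSS. *Hes1* was at 13.4, 9.50, and 10.1 TPM in Control and 27.2, 25.2, and 17.1 TPM in Prdm16SMKO aortas, without overlap (1.05 ± 0.21 SE), and did not pass (adjusted *P* = 0.0586), although it did in 5 of 14 alternatives. *Lfng* was at 1.39, 1.44, and 1.79 TPM in Control and 3.39, 1.82, and 2.56 TPM in Prdm16SMKO aortas (0.68 ± 0.30 SE, adjusted *P* = 0.389). None of 22 tested Notch genes was called.

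Immediate-early genes had the highest share of promoter peaks among these pathway lists, 22 of 26 (84.6%), but wide ones at only 4 (15.4%), *Jun*, *Fosl1*, *Klf2*, and *Klf10*. *Jun*, an AP-1 subunit, had a peak of 1827 bp wholly within its single exon and was at 179, 125, and 115 TPM in Control and 73.4, 99.4, and 90.9 TPM in Prdm16SMKO aortas, without overlap (−0.65 ± 0.18 SE, adjusted *P* = 0.170). Of 24 tested genes in the list, 1 fell, beside 0.683% of all genes, and it had no wide peak. Of 19 smooth muscle contractile genes, 7 had a promoter peak, and *Tpm1* and *Tpm2* a wide one. *Tpm2* was at 3063, 2584, and 2547 TPM in Control and 2016, 2370, and 1708 TPM in Prdm16SMKO aortas (−0.43 ± 0.14 SE, adjusted *P* = 0.247), without overlap, while *Tpm1* overlapped. None of the 19 was called. The median log2 fold change over the tested genes of each list was 0.40 for clock genes, −0.24 for adrenergic receptors, −0.17 for PRDM16 cofactors, −0.10 for TGF-β and BMP, −0.16 for WNT, −0.19 for Notch, −0.16 for immediate-early, and −0.22 for contractile genes, beside −0.12 over all genes.

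Members with a wide promoter peak were also counted by transcription factor family. Over all genes with a curated TSS the share was 3.05%, and many of those genes were too low to be tested in the aortas. Forkhead genes had 9 of 44 (20.5%), among them *Foxc1*, *Foxc2*, *Foxf2*, and *Foxp1*, and *Foxp1* had one at each of 2 promoters. Hox genes had 5 of 39 (12.8%), 2 in the A cluster (*Hoxa2*, *Hoxa4*) and 1 each in B, C, and D (*Hoxb2*, *Hoxc5*, *Hoxd8*). The Hedgehog effectors *Gli2* and *Gli3* (2 of 3) and the Hippo pathway factors *Tead1* and *Tead4* (2 of 4) were represented, as were *Tbx2* and *Tbx18*, *Sox4* and *Sox21*, *Gata2*, *Irx3*, *Pbx3*, and *Pax2*. No wide promoter peak was found among 13 ETS, 5 ZIC, 8 LHX, 4 NFI, or 3 MEIS genes, sets small enough to hold none at the share of all genes. None was found either among 103 histone genes, of which 53 had a promoter peak, or among 79 ribosomal protein genes, of which 14 did. None of the tested wide-peak members of these families was called in the aortas, and *Foxf2*, *Sox21*, and *Pax2* were too low to be tested.

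None of the tested genes at the 10 longest and 10 most enriched peaks was called in the aortas. *Foxf2*, at 0.27 to 0.52 TPM, was under the limit for testing, and *Tchh* was not tested either. *Pcdh7*, a protocadherin, was at 290.1, 228, and 225 TPM in Control and 182, 198, and 147 TPM in Prdm16SMKO aortas, without overlap (−0.49 ± 0.15 SE, adjusted *P* = 0.205). *Mex3b* was low in both, at 0.88, 0.63, and 0.74 TPM and 1.57, 1.88, and 2.10 TPM, also without overlap (1.20 ± 0.33 SE, adjusted *P* = 0.160). *Tns2* was at 157 to 209 TPM in Control and 136 to 163 TPM in Prdm16SMKO aortas, and the groups overlapped. *Irs1*, with its run of 3 wide peaks, was at 12.3, 12.7, and 11.6 TPM in Control and 8.86, 8.82, and 7.34 TPM in Prdm16SMKO aortas, which did not overlap (−0.55 ± 0.15 SE, adjusted *P* = 0.146). Of the most highly expressed genes, *Csrp2* was higher in all 3 Prdm16SMKO aortas, at 2198 to 2496 against 1725 to 1787 TPM (0.42 ± 0.10 SE, adjusted *P* = 0.108), and *Vim* at 3024 to 3834 against 2597 to 2939 TPM (0.28 ± 0.12 SE, adjusted *P* = 0.386). None of these values passed the threshold. By its own RNA-Seq analysis, the paper lists *Arntl*, *Bhlhe41*, *Hes1*, *Smad3*, *Smad7*, *Fzd7*, and *Jun* as differentially expressed, in the directions given here. It also lists *Irs1*, *Pcdh7*, *Mex3b*, *Csrp2*, and *Vim* in these directions, while *Smad6*, *Tpm2*, and *Lfng* are not on that list. The list holds only differentially expressed genes to which the authors assigned a PRDM16 peak in the promoter. Absence from it therefore does not show that the paper found a gene unchanged. A gene that did not pass here is therefore one not called by limma on TPM. Under the 14 alternatives, *Bhlhe41*, *Smad7*, and *Csrp2* passed in 2 each and *Tpm2* in 1, and the other uncalled genes with a wide promoter peak given with a fold change, apart from *Hes1*, passed in none.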

How the data were processed

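For ChIP-Seq the authors mapped reads with bowtie2 to GRCm38 and called peaks per library with MACS2 (paired-end fragments, -g hs, SPMR, q 0.01); the control library is not given in the sources used here. The deposited lists hold positions, a score (not used), the fold enrichment as a ratio, and −log10 p and −log10 q at the summit. For RNA-Seq the authors deposited TPM, 1 column per aorta; STAR 2.7.8a and RSEM 1.3.3 are in the submitters' processing notes. Per the labels, an average of 40000000 (RNA-Seq) and 25000000 (ChIP-Seq) read pairs were sequenced per sample; TPM and peak lists give no depth per library, so counting error per gene or peak is unknown. IgG libraries were not analysed here.

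Peaks were placed by their centre with curated RefSeq transcripts (microRNA hairpins left out). Shares have exact Clopper-Pearson intervals at 95% (counting error only). TPM were tested with limma 3.58.1 (R 4.3.3; lmFit, eBayes with trend) on log2(TPM + 0.1), limited to a mean TPM of 0.5 or more, with Benjamini-Hochberg adjustment over every gene tested, so fold changes of low genes are understated. The fit was tested on simulated data. P values measure the spread between 3 aortas per group, which the labels number only as replicates. Genes were matched by symbol, then by a unique Entrez ID. Members, lists, and tests were chosen with earlier results of these data known. Named were the 10 longest and 10 most enriched peaks, those at the threshold, runs of 3, list genes with a wide promoter peak (5 per list where over 10), called genes without overlap, and the 5 highest in TPM; other genes were named after their values were seen. Alternatives were other pseudocounts, filters, scalings, left-out aortas, promoter windows, lengths, and q limits. Further tools were pysam 0.24.0, scipy 1.17.1, pandas 2.3.3, matplotlib 3.10.9, numpy 2.4.6, and Python 3.11.15.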

Additional observations from a re-analysis of the deposited data

How the results depend on the processing

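The number of wide peaks was 390 above 1249 bp, and 900 bp or a stricter q kept it within 1.5 times 829. The promoter share was 71.0% with 1 kb on either side, 86.6% with 5 kb, and 26.4% with 1 kb before and 100 bp after the TSS. The median G+C content was 69.7% within 100 bp of the summit and 65.3% above 1249 bp. Genes with a wide promoter peak called were 3 with a pseudocount of 1, 3 without a filter on TPM, 30 by median ratio, 25 by quantile normalization, 0 without a trend, and 2 above 1249 bp. All genes called were 110 without a filter, 413 by median ratio, 392 by quantile, and 48 without a trend. Leaving out 1 aorta gave 1 to 4 called wide-peak genes and 91 to 141 genes in all, both lowest without Control replicate 1; without Control replicates 2 and 3 and Prdm16SMKO replicate 1 all genes called were 99, 93, and 105. The replicate number as a block gave 7 and 184. Same-numbered aortas had correlations of −0.0246, −0.07, and −0.009, and differently numbered ones −0.0764 to 0.0968. These values show no pairing by number, but with 3 aortas per group they cannot exclude one. In the 200 bp window every motif share fell except that of CGCATGCG, which stayed at 0. With 300 bp on the peak centre, CCAAT was in 13.9%, TATAAA in 2.05%, AAGATGGC in 1.09%, TGACGTCA in 0.483%, and CGCATGCG in 0.121% of wide peaks. The causes were not tested. No value changed sign for the genes with a wide promoter peak given with a fold change. Counts per gene and peak were not used here, which limits low genes and neighbouring fold enrichments.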

Other observations

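The 85 intronic and 46 intergenic wide peaks had medians of 1236 and 1138.5 bp and fold enrichments of 6.68 and 6.33, close to the 1237 bp and 6.82 of promoter peaks, although most lacked the base composition of a CpG island. The 62 peaks of 2000 bp or more had a median fold enrichment of 8.79 and a median G+C content of 64.2%, so the longest peaks were more enriched without being richer in G+C. The 12 genes with 2 wide promoter peaks include *Rara*, *Nfatc1*, *Gata2*, *Foxp1*, *Bhlhe41*, *Ptger4*, *Wnt9a*, *Synpo*, and *Tll1*.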
